A study of Mus musculus with 8 samples.

Results

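Genes of mitosis, the kinetochore and the spindle checkpoint were followed in RNA-seq libraries of mouse embryonic stem cells. The 40 genes were taken from a named list and matched to the deposited table by Ensembl identifier through their mouse symbol, out of 52338 gene rows with values. All 40 were matched, and all 40 passed the filter of a mean of at least 1 FPKM over the 8 libraries. FPKM is the number of fragments per kilobase of transcript, scaled to a library total, so levels can be compared between genes. The samples formed 4 groups of 2 libraries: untreated cells (control), and cells treated with sh-linc1393, sd-linc1393 or dd-linc1393, called sh, sd and dd here. The control libraries carry the genotype label WT, the genotype field of the treated libraries repeats their treatment, and the labels name no cell line, dose or time. linc1393 is a long non-coding RNA that the study examined for its part in pluripotency. The meaning of sd and dd is not explained in the labels, the control cells were untreated rather than given a control agent, and the level of linc1393 was not analysed here. No source says that libraries of 1 group were grown apart, and p-values then reflect spread between libraries that may be technical.

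Mitosis is driven by Cdk1 bound to A- and B-type cyclins, with the Polo-like and Aurora kinases. Condensin and topoisomerase II compact and untangle the chromosomes, the kinetochore ties each centromere to spindle microtubules, and the checkpoint proteins hold back Cdc20 and the anaphase promoting complex until every kinetochore is attached. Separase then cuts cohesin, and the midzone proteins bring about cytokinesis. Embryonic stem cells divide rapidly and spend much of each cycle in S phase. Many of these genes are transcribed mainly in G2 and M phase, through CCAAT boxes bound by NF-Y and through a cell cycle genes homology region (CHR), an element bound by the DREAM and MuvB complexes. In bulk RNA, fewer cells in mitosis and less RNA of these genes per cell cannot be told apart.

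The promoter sequences are shown because the letters of these elements were found in many of the windows matched, though not in all. RefSeq promoter windows of 300 bases (250 before to 50 after the gene start, build GRCm38.p6) were matched for 33 of the 40 genes, with 36 windows. Each stretch below gives 120 bases that end at the gene start of RefSeq or of GENCODE, whichever lies further upstream, read 5' to 3' on the gene's strand. Capitals mark CCAAT or its reverse complement ATTGG, and TTTGAA, its reverse complement TTCAAA, or TTCGAA, the letters searched as CHR. The 8 genes shown were chosen after their values were seen, to give windows with both kinds of match (Bub1, Aurka, Cdk1, Ccnb2, Ncapg and Cdc20), with CCAAT alone (Ccnb1) and with neither (Mad2l1). Bub1 lies at chr2:127831866-127831985 on the minus strand, Aurka at chr2:172370571-172370690 on the minus strand, Cdk1 at chr10:69352939-69353058 on the minus strand and Ccnb1 at chr13:100786571-100786690 on the minus strand. Ccnb2 lies at chr9:70421555-70421674 on the minus strand, Ncapg at chr5:45669799-45669918 on the plus strand, Cdc20 at chr4:118437353-118437472 on the minus strand and Mad2l1 at chr6:66535101-66535220 on the plus strand.
Bub1: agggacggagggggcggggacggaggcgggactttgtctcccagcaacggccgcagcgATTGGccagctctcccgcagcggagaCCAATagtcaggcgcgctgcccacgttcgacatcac
Aurka: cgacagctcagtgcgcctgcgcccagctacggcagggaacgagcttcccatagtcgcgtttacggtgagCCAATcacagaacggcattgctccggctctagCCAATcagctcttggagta
Cdk1: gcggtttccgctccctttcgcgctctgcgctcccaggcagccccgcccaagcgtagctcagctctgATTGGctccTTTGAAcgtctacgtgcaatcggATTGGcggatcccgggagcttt
Ccnb1: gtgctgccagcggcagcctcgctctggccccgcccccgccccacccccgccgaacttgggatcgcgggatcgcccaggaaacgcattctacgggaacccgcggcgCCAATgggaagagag
Ccnb2: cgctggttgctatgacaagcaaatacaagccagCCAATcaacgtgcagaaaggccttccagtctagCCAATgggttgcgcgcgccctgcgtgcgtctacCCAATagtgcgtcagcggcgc
Ncapg: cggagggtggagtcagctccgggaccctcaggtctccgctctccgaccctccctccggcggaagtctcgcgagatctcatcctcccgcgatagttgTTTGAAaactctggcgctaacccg
Cdc20: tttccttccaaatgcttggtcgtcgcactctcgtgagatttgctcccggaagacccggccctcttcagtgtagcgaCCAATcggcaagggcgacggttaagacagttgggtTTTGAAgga
Mad2l1: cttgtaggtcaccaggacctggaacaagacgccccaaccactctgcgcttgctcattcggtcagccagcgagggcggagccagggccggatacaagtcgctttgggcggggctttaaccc

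CCAAT, on either strand, was found in 75% of the member windows, against 37.4% of all 32851 RefSeq windows and 39.1% of the windows of genes that passed the expression filter. At least 2 matches were held by 47.2% of the member windows and 11.7% of all windows. TTTGAA, on either strand, was found in 77.8% of the member windows and 17.9% of all windows, and TTCGAA, which is its own reverse complement, in 8.3% and 1.6%. Both a CCAAT and 1 of the CHR letters stood in 69.4% of the member windows, 7.5% of all windows and 5.9% of the windows of genes that passed the filter. In the first window listed for each gene, 30 of 49 CCAAT matches (61.2%) began 31 to 130 bases before the start, against 44.7% of the matches in all genes with a window. Of 35 CHR matches, 25 (71.4%) began within 50 bases of the start, against 24.7% in all genes. In Cdk1, a CHR match began 71 bases before the RefSeq start between CCAAT matches that began 80 and 48 bases before it. Another CHR match began 15 bases before that start and another CCAAT match 208 bases before it, both outside the printed stretch. Bub1 and Aurka each had a pair of CCAAT matches upstream, with the CHR letters 14 and 32 bases after the start, outside the printed stretch. Ccnb1 had 2 CCAAT matches, 1 of them in the printed stretch, and no CHR letters, while the Ccnb2 window held 3 CCAAT and 2 CHR matches. Mad2l1, Birc5, Nuf2, Ncaph and Pttg1 had no match in their windows. For Kif2c, Cdca8 and Pttg1 the whole window lies downstream of the GENCODE gene start, so it describes the RefSeq start alone. A match is a description of letters and not a binding site.

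**Figure D1:**
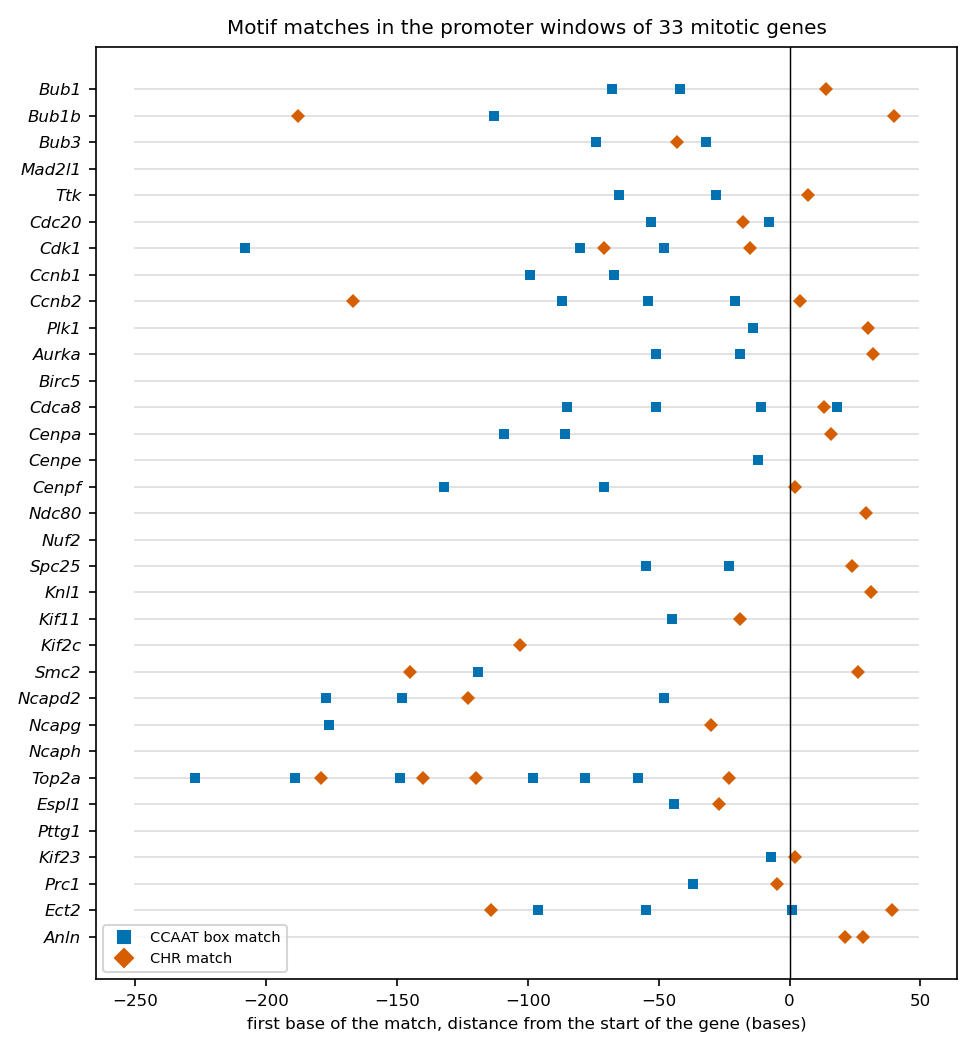
First bases of CCAAT (squares) and CHR (diamonds) matches against distance from the RefSeq gene start in bases, for 33 mitotic genes in the first window listed for each gene. CCAAT matches collect upstream of the start and CHR matches around it, and 5 genes have neither.

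The libraries differed in depth and by replicate number. Total reads recovered from the values ran from 3658368 in control replicate 2 and 6415130 in control replicate 1 to between 13738591 and 20387065 in the 6 treated libraries, so depth moves with the comparison against control, and its part in the results was not tested. The mitotic genes held 9219 reads in control replicate 2 and 23508 to 97270 in the other libraries. All 10 embryonic stem cell markers were above 0 in every library. Dppa5a alone had 292 to 557 FPKM in replicate 1 and 5866 to 8584 FPKM in replicate 2, the other 9 markers summed to 1044 to 1371 and 1125 to 1786 FPKM, and Zfp42 and Sall4 were lower in replicate 2. All 9 fibroblast feeder markers lay below the expression filter: their summed level was 0.594 to 0.968 FPKM in replicate 1 and 1.57 to 7.47 FPKM in replicate 2, and Col3a1, Dcn, Lum and Postn were at 0 in all 4 replicate 1 libraries. In replicate 2 the feeder sum was highest in the control library (7.47 FPKM) and lower in sh (5.05), sd (5.13) and dd (1.57), and its part in the results was not tested.

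The B-type cyclins led the mean levels, and the midzone genes Prc1 and Kif20a closed the order. Ccnb2 had a mean of 70.1 FPKM over the 8 libraries (range 46.7 to 99.4) and Ccnb1 a mean of 60.3 FPKM (27.4 to 98.0). Birc5 followed with a mean of 49.5 FPKM, Smc4 with 40.3, Ect2 with 40.2, Ccna2 with 37.1, Top2a with 36.3 and Cdk1 with 34.3. These neighbours overlapped in their ranges, so their order is not resolved. At the low end stood Espl1 with a mean of 3.56 FPKM, Knl1 with 3.28, Cenpf with 3.12, Kif20a with 2.91 and Prc1 with 2.32. Both of the last spanned a wide range, 0.0168 to 13.8 FPKM for Kif20a and 0.114 to 8.27 FPKM for Prc1. The median member stood at 12.1 and 11.2 FPKM in the control libraries, 14.9 and 21.4 in sh, 18.9 and 17.0 in sd, and 15.8 and 16.2 in dd, replicate 1 first in each pair. Both control medians were thus the lowest, and the 6 treated medians did not overlap them. The median of all genes tested was also lowest in control among the replicate 1 libraries, at 2.89 FPKM against 3.18 in sh, 4.01 in sd and 3.78 in dd, while in replicate 2 it was 5.65 against 6.66, 5.30 and 4.60. Between 37 and 40 of the 40 genes reached 1 FPKM in each library.

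**Figure D2:**
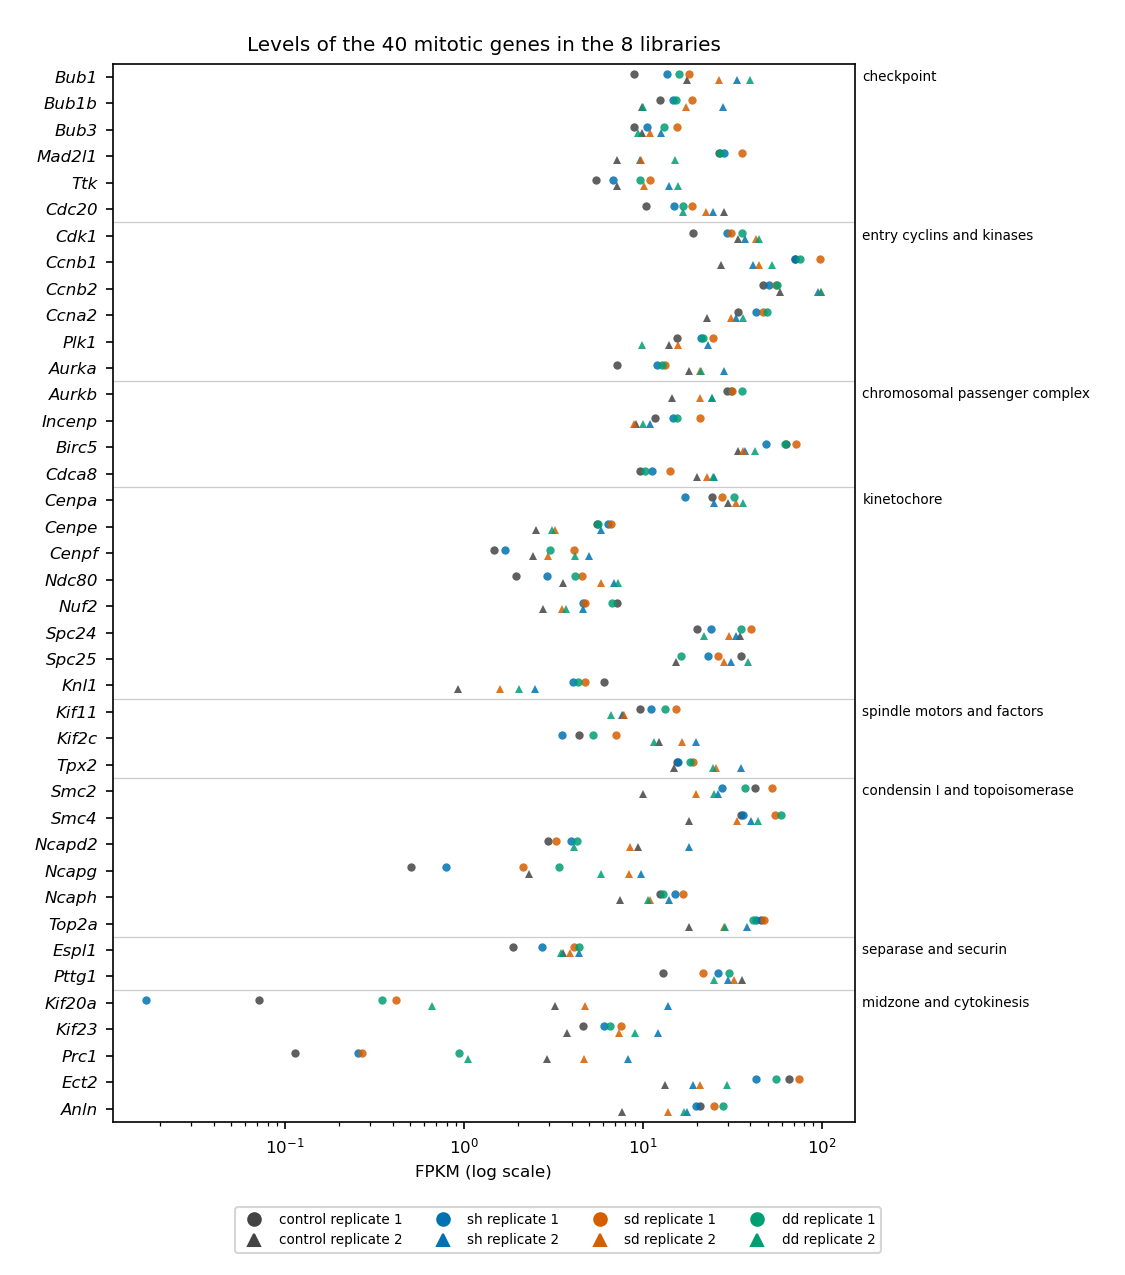
FPKM on a log axis for each of the 40 genes, grouped by role, with circles for replicate 1, triangles for replicate 2 and colour for the group. Kif20a and Prc1 span the widest range, and the highest single points belong to the B-type cyclins.

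Against the untreated cells, most mitotic genes had a higher value in each treated group, but no gene passed the test. The log2 difference in FPKM + 1 was above 0 for 37 of the 40 genes in sh, 38 in sd and 35 in dd, against 65.5%, 62.9% and 53.6% of the 14561 genes tested. The members' median difference was 0.39 in sh, 0.43 in sd and 0.33 in dd, while the median over all genes was 0.15, 0.17 and 0.06. None of the 40 was called at an adjusted p under 0.05 by limma with Benjamini-Hochberg adjustment in any of the 3 comparisons, as 0% of all genes were. At an unadjusted p under 0.05, limma gave 0 members in each comparison and 32, 50 and 83 of all genes, and voom on recovered reads called 0 members too, with 7, 11 and 24 of all genes at that unadjusted p. In limma without the replicate number, the standard error of a member's difference was 0.51 to 1.41, larger than most of the differences themselves. That error includes the spread between the replicate numbers, so the test is a cautious one. Its counts of all genes at an unadjusted p under 0.05 also lay below what chance alone would give. Adding the number to the fit as a block lowered the standard error to 0.31 to 0.72, and still no member was called. All 3 comparisons share the same control libraries, so they are not independent of each other.

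Within replicate numbers, each treated library can be set against the control library of its own number. In sh, 25 members were higher within both numbers, against 35.2% of all genes, and 1 was lower within both, against 10.6%. In sd, 32 were higher within both, against 37.5%, and none was lower, against 12.7%. In dd, 22 were higher within both, against 31%, and none was lower, against 15.1%. Libraries of treated and control cells did not overlap, with the treated ones higher, for 8 members in sh, 10 in sd and 10 in dd, against 8.4%, 11.1% and 11.2% of all genes. With the replicate number as a block, 1, 1 and 5 members had an unadjusted p under 0.05 and none was called. The shares of all genes at that unadjusted p with the block were 3.3%, 6.49% and 9%, so 1 of 40 lay near or under the background and 5 of 40 a little above it.

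With the replicate block, the position of the members relative to other genes depended most on control replicate 2. Over the 8 libraries, 33 members in sh, 35 in sd and 35 in dd lay above the median difference of all genes tested. Quantile normalization and median ratio scaling moved the median of all genes to 0.03 to 0.05 in the 3 comparisons, and 31 to 34 members lay above it. Leaving out control replicate 2, with the replicate block kept, these counts were 23, 24 and 23 of 40. Without the block they were 17, 17 and 16. Leaving out control replicate 1 instead, they were 33, 36 and 32 with the block. Leaving out replicate 1 of sh, sd or dd gave 17, 19 and 22 without the block, and 32, 34 and 31 with it. Leaving out replicate 2 of sh, sd or dd gave 34, 37 and 35 without the block, and 28, 33 and 31 with it. Without the block, such counts also contain part of the difference between the replicate numbers. Its median was 0.09 for the members and 0.73 for all genes. The sh median of 0.39 rested on sh replicate 2: without that library it was 0.13 (0.15 with the block), and 28 members were above 0 in place of 37. Within replicate 1, the members' median was 0.19 in sh, 0.49 in sd and 0.40 in dd, and that of all genes was 0.10, 0.31 and 0.28. Within replicate 2, the members' medians were 0.69, 0.43 and 0.42 and those of all genes 0.20, 0.03 and -0.13. The distance between members and other genes was therefore wider within replicate 2 than within replicate 1 in all 3 comparisons, a difference that was not tested.

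**Figure D3:**
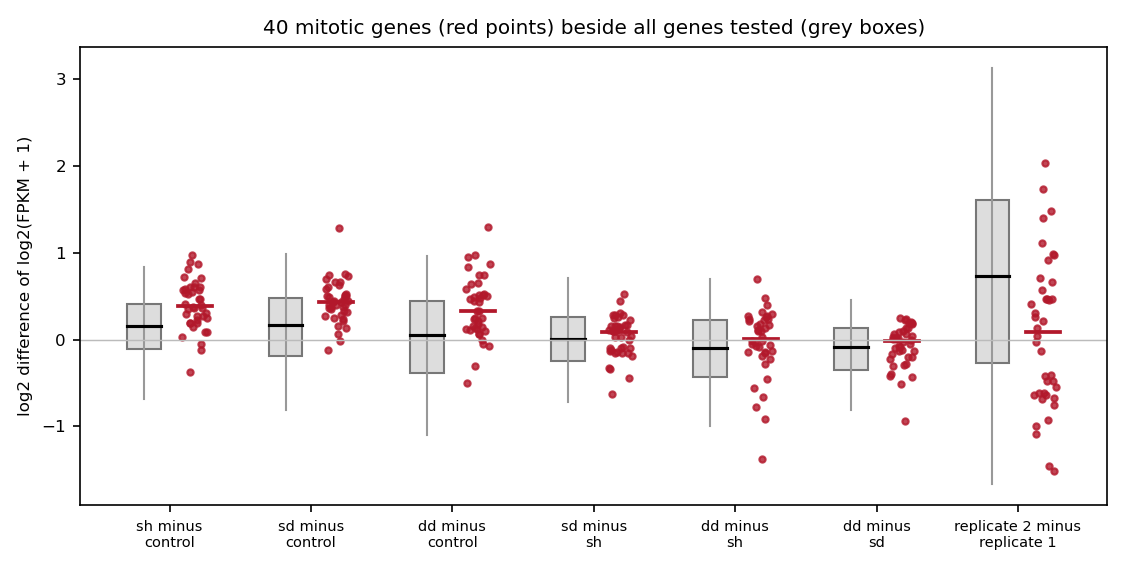
Log2 differences of log2(FPKM + 1) for the 40 mitotic genes (red points, red line at their median) beside all genes tested (grey box from the first to the third quartile, line at the median, whiskers from the 5th to the 95th percentile) in 7 comparisons. Against control the red points lie mostly above 0, with medians of 0.39, 0.43 and 0.33, and in replicate 2 minus replicate 1 most lie below the median of all genes.

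Among the checkpoint genes, Bub1, the kinase that docks other checkpoint proteins at the kinetochore, had 8.94 and 17.7 FPKM in control, 13.6 and 33.5 in sh, 18.1 and 26.7 in sd, and 16.0 and 39.9 in dd. Each treated library lay above the control library of its number, and both sd libraries lay above both control libraries. The log2 difference was 0.72 ± 0.77 (SE, 2 libraries a group) in sh, 0.76 ± 0.77 in sd and 0.95 ± 0.77 in dd. Within replicates 1 and 2 it was 0.56 and 0.88 in sh and 0.77 and 1.13 in dd. Without the block, the sh difference was 0.10 without sh replicate 2 and 1.34 without sh replicate 1. The dd difference was likewise 0.32 without dd replicate 2 and 1.59 without dd replicate 1. Such fits with a library left out also contain part of the difference between the replicate numbers. With the replicate block, the standard error of Bub1 fell to 0.35, and in dd the unadjusted p was 0.023 and the adjusted p 0.55 (limma). Ttk, the kinase known as Mps1 that starts checkpoint signalling, had 5.45 and 7.17 FPKM in control, 6.85 and 13.98 in sh, 10.97 and 10.1 in sd, and 9.62 and 15.7 in dd. The sd and dd libraries of Ttk lay above both controls. Bub1b, which encodes the Cdc20 inhibitor BubR1, had 12.4 and 9.91 FPKM in control, 14.7 and 27.9 in sh, 18.9 and 17.5 in sd, and 15.3 and 10.1 in dd, with sh and sd separate from control and dd overlapping it. Bub3, their binding partner, ranged from 8.94 to 15.6 FPKM. Cdc20, the target of the checkpoint, had 10.4 and 28.5 FPKM in control and 15.0 to 24.6 in the treated libraries, so its control libraries enclosed all others. Part of its sequence, 26.7% of its 31-base words, also occurs in other genes, so reads may be split between the copies.

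Of the entry kinases and cyclins, all 6 were higher within both numbers in sh and in sd, and 5 in dd. Aurka, the spindle pole kinase, had 7.21 and 18.04 FPKM in control, 12.02 and 28.4 in sh, 13.3 and 20.8 in sd, and 12.9 and 21.2 in dd. In sh its difference was 0.65 ± 0.73, and 0.67 and 0.63 within replicates 1 and 2. Without the block, it was 0.04 without control replicate 1 and 1.26 without control replicate 2. Those fits set both sh libraries against 1 control library, so their values also contain part of the difference between the replicate numbers. Cdk1, the kinase that drives entry into mitosis, had 19.1 and 34.1 FPKM in control, 29.5 and 37.0 in sh, 31.2 and 42.8 in sd, and 36.1 and 44.9 in dd. Only the dd libraries lay above both controls. Plk1, the Polo-like kinase, had 15.5 and 14.05 FPKM in control, 21.2 and 23.0 in sh, 24.7 and 15.7 in sd, and 21.7 and 9.88 in dd. It was separate from control in sh and sd, but in dd its replicate 2 library was the lowest of the 8. Plk1 shares 18.7% of its 31-base words with other genes, mainly a Plk1 pseudogene. Ccna2, which encodes cyclin A2, had 34.2 and 22.9 FPKM in control, 42.9 and 33.1 in sh, 47.1 and 31.2 in sd, and 49.2 and 36.5 in dd. The dd difference was 0.58 ± 0.61, and 12.5% of its exon bases overlap Exosc9 on the other strand.

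In the chromosomal passenger complex, which corrects faulty attachments, the median difference over 4 genes was 0.26 in sh, 0.32 in sd and 0.21 in dd. The kinase Aurkb had 29.7 and 14.7 FPKM in control, 31.1 and 24.2 in sh, 31.7 and 20.8 in sd, and 36.1 and 24.3 in dd. Birc5, which encodes survivin, had 63.4 and 34.0 FPKM in control, 48.6 and 37.4 in sh, 72.2 and 36.3 in sd, and 62.0 and 42.5 in dd, with no separation in any group. The scaffold Incenp ranged from 8.93 to 20.9 FPKM and Cdca8, borealin, from 9.64 to 25.02 FPKM, and neither separated a treated group from control.

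At the kinetochore, the outer subunit Ndc80, which grips the microtubule, had 1.94 and 3.58 FPKM in control, 2.93 and 6.94 in sh, 4.55 and 5.86 in sd, and 4.20 and 7.31 in dd. The sd and dd libraries lay above both controls, and the dd difference was 0.84 ± 0.60, with 0.82 and 0.86 within replicates 1 and 2. Its partner Nuf2 did not follow: it had 7.15 and 2.76 FPKM in control and 3.54 to 6.72 in the treated libraries. Spc24 and Spc25, the inner pair of the same complex, also split by number. In dd, Spc25 differed from control by -1.07 within replicate 1 and 1.28 within replicate 2, while Spc24 differed by 0.79 and -0.66. The ratio of Spc24 to Spc25 ran from 0.567 in control replicate 1 to 2.29 in control replicate 2 and from 2.17 in dd replicate 1 to 0.566 in dd replicate 2. Cenpa, the histone variant that marks the centromere, had 24.3 and 30.1 FPKM in control, 17.3 and 24.9 in sh, 27.6 and 32.98 in sd, and 32.2 and 36.3 in dd. It was the 1 member lower within both numbers in sh, with a difference of -0.37 ± 0.56, and both dd libraries lay above both controls. Cenpf, a large outer protein of G2 and mitosis, had 1.46 and 2.44 FPKM in control, 1.69 and 5.02 in sh, 4.13 and 2.96 in sd, and 3.04 and 4.18 in dd. Cenpe, a kinetochore motor, ranged from 2.54 to 6.67 FPKM, and Knl1, the platform for Bub1, from 0.928 to 6.04 FPKM.

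Condensin I subunits differed among themselves. Ncapg, a HEAT-repeat subunit, had 0.507 and 2.32 FPKM in control, 0.793 and 9.72 in sh, 2.14 and 8.42 in sd, and 3.39 and 5.86 in dd. These values rested on 23 and 60 reads in the control libraries and 77 to 960 in the treated ones. Its difference was 1.28 ± 1.02 in sd and 1.29 ± 1.02 in dd, the largest of the 40 in both. The sd value was 0.49 without sd replicate 2 and 2.15 with voom, and the dd value 0.72 without control replicate 1 and 2.22 with voom. With the replicate block the unadjusted p was 0.028 in sd and 0.026 in dd, and the adjusted p was 0.72 and 0.55 (limma). For Ncapg, 13.4% of the exon bases overlap Lcorl on the other strand. The ATPase subunit Smc4 had 35.5 and 18.2 FPKM in control, 36.4 and 40.5 in sh, 54.9 and 33.5 in sd, and 59.0 and 44.3 in dd, and its dd difference was 0.98 ± 0.64. Its partner Smc2 had 42.6 and 9.98 FPKM in control, 27.9 and 26.4 in sh, 52.5 and 19.8 in sd, and 37.0 and 25.03 in dd, with sh and dd lower than control in replicate 1 and higher in replicate 2. Ncapd2, another HEAT-repeat subunit, had 2.94 and 9.42 FPKM in control, 3.995 and 18.2 in sh, 3.27 and 8.47 in sd, and 4.29 and 4.10 in dd. The kleisin Ncaph ranged from 7.49 to 16.9 FPKM, with both sh libraries above both controls. Top2a, the topoisomerase of dividing cells, had 45.9 and 18.2 FPKM in control and 28.4 to 47.4 in the treated libraries.

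Spindle, anaphase and midzone genes completed the set. Tpx2, the activator of Aurora A on the spindle, had 15.5 and 14.9 FPKM in control, 15.7 and 35.4 in sh, 19.0 and 25.7 in sd, and 18.4 and 24.7 in dd, and all 6 treated libraries lay above both controls. The same held for Kif23, a centralspindlin motor, with 4.66 and 3.77 FPKM in control, 6.07 and 12.1 in sh, 7.54 and 7.40 in sd, and 6.53 and 9.09 in dd. The Kif23 differences were 0.89 ± 0.55, 0.70 ± 0.55 and 0.75 ± 0.55. With the replicate block, Kif23 had an unadjusted p of 0.050 in sh and an adjusted p of 1 (limma). The spindle motor Kif11 and the microtubule depolymerase Kif2c gave no separation from control in any group. Espl1, separase, had 1.89 and 3.56 FPKM in control, 2.74 and 4.39 in sh, 4.10 and 3.92 in sd, and 4.43 and 3.49 in dd. Its inhibitor Pttg1, securin, had 13.02 and 35.9 FPKM in control, enclosing the treated range of 21.7 to 32.3 FPKM. Ect2, the exchange factor that activates RhoA for the cleavage furrow, and the furrow scaffold Anln overlapped control in every group.

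Kif20a and Prc1 divided the replicate 2 libraries. Kif20a, a motor of the central spindle, had 0.0719 and 3.21 FPKM in control, 0.0168 and 13.8 in sh, 0.419 and 4.77 in sd, and 0.349 and 0.667 in dd. Its values rested on 2 and 1 reads in control and sh replicate 1, so no ratio is read from them, and 835 reads in sh replicate 2. Prc1, which bundles midzone microtubules, had 0.114 and 2.92 FPKM in control, 0.257 and 8.27 in sh, 0.269 and 4.71 in sd, and 0.939 and 1.05 in dd. For both genes the replicate 2 library of dd lay far below the other 3 of its number, as it did for Ncapd2. Within replicate 2, dd differed from control by -1.34 in Kif20a and -0.94 in Prc1. For Kif20a, 29.3% of the exon bases overlap Cdc23 on the other strand, and for Prc1 11.1% overlap Rccd1, and whether the counting used strand is not known.

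**Figure D4:**
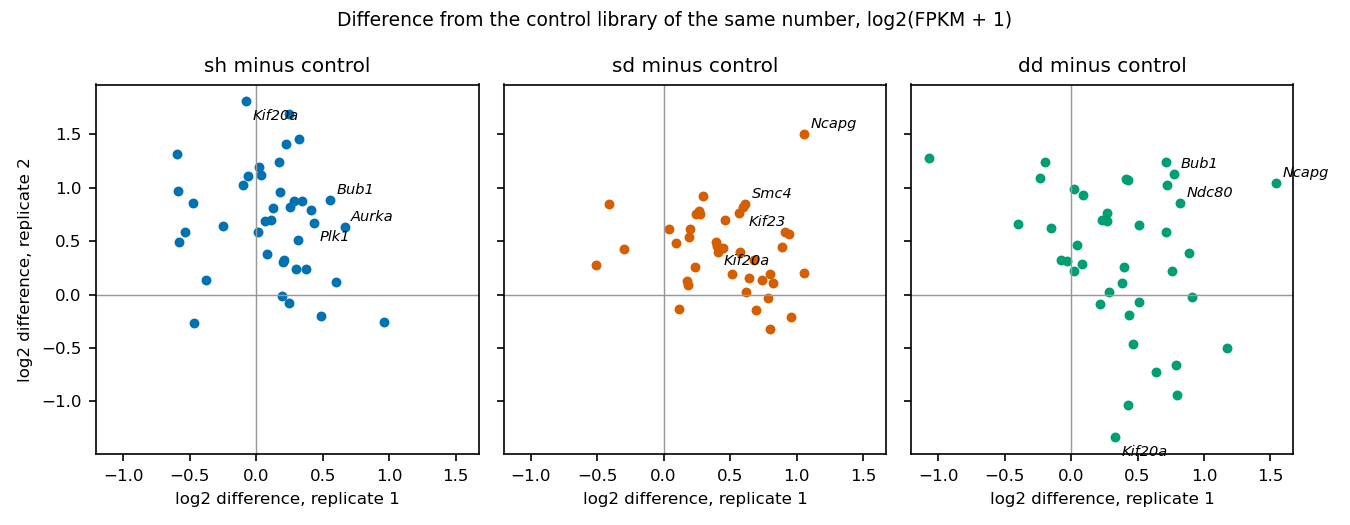
Log2 difference from the control library of the same number for the 40 mitotic genes, replicate 1 on the horizontal axis and replicate 2 on the vertical axis, in sh, sd and dd. In sd, 32 points lie in the upper right field, against 25 in sh and 22 in dd, and Kif20a lies lowest in dd.

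Between the treated groups, no member was called in the 3 comparisons (sd minus sh, dd minus sh, dd minus sd), with 0% of all genes called (limma, adjusted p under 0.05). The replicate block gave 0 members at an unadjusted p under 0.05 in each, and 330, 620 and 147 of all genes. The members' median difference was 0.09 for sd minus sh, 0.01 for dd minus sh and -0.02 for dd minus sd. These medians hid opposite values in the 2 replicate numbers. For sd minus sh, 38 members were higher in sd within replicate 1 and 8 within replicate 2, with medians of 0.33 and -0.26, against 61.9% and 29.9% of all genes. For dd minus sh, 34 were higher in dd within replicate 1 and 14 within replicate 2, against 59.9% and 31.5% of all genes. In Cenpa, sd exceeded sh by 0.65 and 0.39 and dd exceeded sh by 0.87 and 0.53 within replicates 1 and 2, which is the same direction in both. No order of the 3 treatments can be read for the set.

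Among the other genes of the pathway, listed by function, none was called in either direction in any comparison with control. Their counts can be read beside the shares of all genes above 0, which were 65.5% in sh, 62.9% in sd and 53.6% in dd. Of 35 other kinetochore and checkpoint genes tested, 29 had a difference above 0 in sh, 29 in sd and 25 in dd, with medians of 0.25, 0.36 and 0.42. Ska3, of the Ska complex that couples kinetochores to microtubules, had 5.47 and 5.86 FPKM in control, 11.5 and 12.6 in sh, 10.99 and 12.05 in sd, and 15.5 and 13.5 in dd. All 6 treated libraries stood apart from the controls, and the dd difference was 1.22 ± 0.49, with an adjusted p of 1 (limma). Of 15 cohesin and condensin II genes, 13, 14 and 13 were above 0, with medians of 0.43, 0.60 and 0.57. Esco2, which acetylates cohesin, had 8.09 and 9.91 FPKM in control and 17.1 to 24.4 in the treated libraries, and Ncapg2, a condensin II subunit, had 1.08 and 1.24 FPKM in control and 2.69 to 4.21 in the treated ones. Both were thus separate from control in each group, and in dd their differences were 1.11 ± 0.53 and 1.24 ± 0.47. Other mitotic kinesins and spindle genes were above 0 in 26, 24 and 21 of 31, anaphase promoting complex genes in 15, 16 and 13 of 19, and entry kinases and phosphatases in 14, 16 and 14 of 19. Cytokinesis genes were above 0 in 11, 11 and 10 of 14, and the MuvB, E2F and NF-Y regulators in 15, 17 and 11 of 21. CDK inhibitors and exit genes were above 0 in 7, 8 and 7 of 13, and G1 cyclins and kinases in 4, 4 and 3 of 8, with medians of 0.01, -0.02 and -0.31 for the latter.

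More members were called between the replicate numbers than against control. The labels tie these numbers to no date or batch. With group in the fit, 20 of the 40 genes were called by limma at an adjusted p under 0.05, 10 higher and 10 lower in replicate 2, against 61.3% of all genes, 46.6% higher and 14.6% lower. Such p-values reflect how evenly the shift held across the groups, and not spread between independent repeats of each number. The members' median was 0.09, while the median of all genes was 0.73, and 32 of the 40 lay below that median. Libraries of the 2 numbers did not overlap for 6 members higher in replicate 2, against 41.9% of all genes, and for 11 lower, against 14.2%. The split of calls follows the scaling: it was 1 higher and 18 lower with quantile normalization, 4 and 18 with median ratio scaling, and 3 and 18 with each library rescaled to the same total of 1000000 FPKM. These scalings moved the median of all genes to 0.02, 0.25 and 0.18, and 30, 32 and 32 of the 40 still lay below it. Actb had 9006 to 15913 FPKM in replicate 1 and 55.3 to 76.6 in replicate 2, and Gapdh 4.07 to 10.1 and 37.4 to 74.9. All 6 primitive endoderm markers had a difference below 0, 5 of them called, with a median of -1.58 and a summed level of 21.5 to 35.6 FPKM in replicate 1 and 1.49 to 7.74 in replicate 2, and none was at 0 in any library. The part of these differences in the members' values was not tested. Summed FPKM over all genes was 540017 to 632749 in replicate 1 and 888554 to 1079205 in replicate 2.

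Members that were higher in replicate 2 included Kif20a (2.04 ± 0.51, adjusted p = 0.0074), Prc1 (1.74 ± 0.45, 0.0087), Ncapg (1.49 ± 0.35, 0.0052) and Kif2c (1.41 ± 0.28, 0.0024), all by limma with Benjamini-Hochberg adjustment. The size for Kif20a is uncertain: its replicate 1 libraries held 2, 1, 37 and 29 reads in control, sh, sd and dd. Its difference ran from 1.19 to 4.49 over the alternatives. Kif2c had 3.54 to 7.05 FPKM in replicate 1 and 11.5 to 19.8 in replicate 2, with no overlap. Members lower in replicate 2 were led by Ect2 (-1.51 ± 0.28, adjusted p = 0.0016), Mad2l1 (-1.46 ± 0.26, 0.0014), Knl1 (-1.09 ± 0.30, 0.012) and Smc2 (-0.99 ± 0.33, 0.026). Ect2 had 43.2 to 74.9 FPKM in replicate 1 and 13.3 to 29.5 in replicate 2, and Mad2l1, the checkpoint protein that binds Cdc20, had 26.8 to 35.8 and 7.14 to 15.1. The other 12 called members had differences between -0.93 and 1.11. Leaving out 1 library in turn gave 9 to 15 called members, with the lowest count without sd replicate 1, 11 without sd replicate 2 or sh replicate 1, and 12 without control replicate 1. Without the filter on low values 14 were called, 9 higher and 5 lower. Kif20a passed in neither the quantile scaling (adjusted p = 0.051, limma) nor without sh replicate 2 (0.055). Prc1 lost the call with quantile scaling (0.079) and without sh replicate 1 (0.058) or 2 (0.069), Ncapg with quantile scaling (0.077), and Kif2c with libraries rescaled to the same total (0.065). Knl1 lost it without control replicate 1 (0.057) or sd replicate 1 (0.055), and Smc2 without either control library (0.10 and 0.070) or either sd library (0.12 and 0.10), each an adjusted p from limma.

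**Figure D5:**
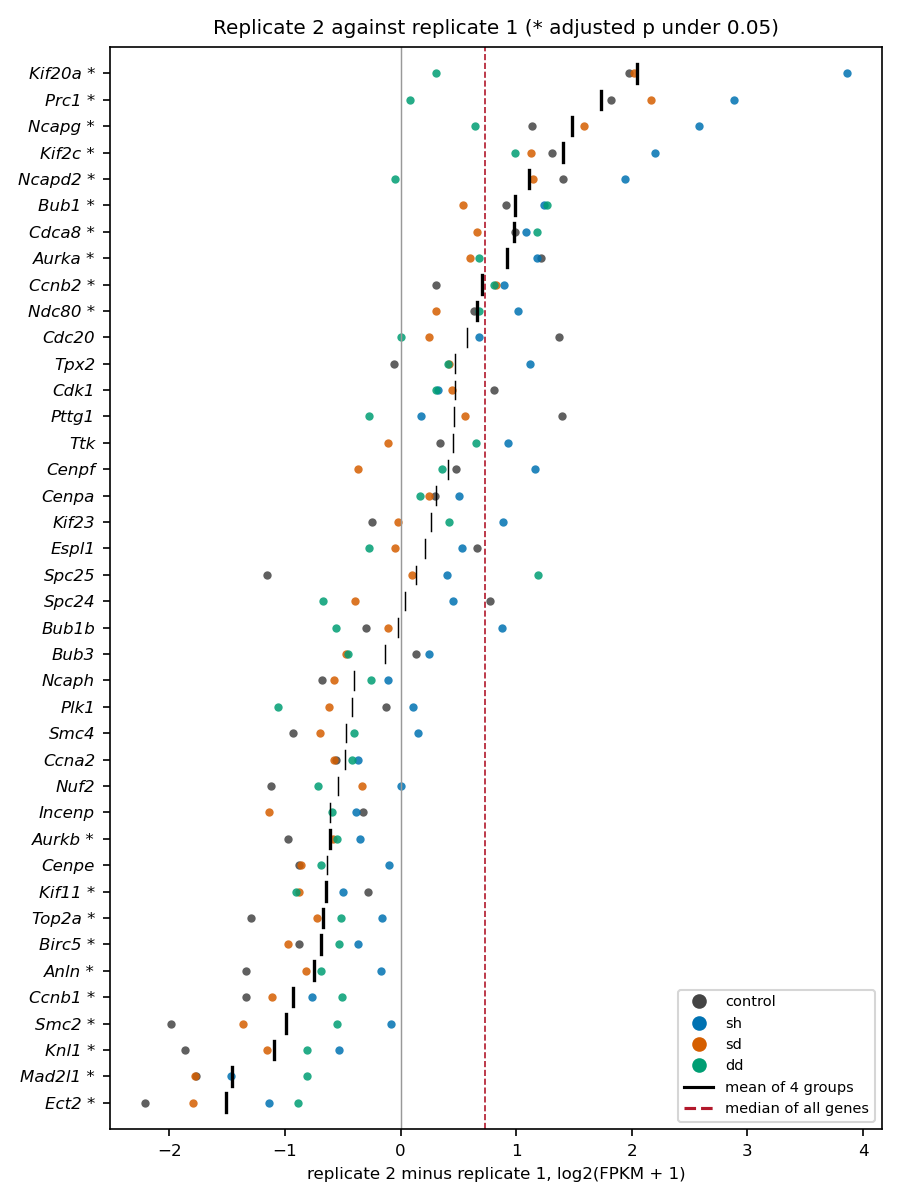
Replicate 2 minus replicate 1 in log2(FPKM + 1) for each of the 40 genes, with 1 point per group, a black mark at the mean of the 4 groups (thick where adjusted p is under 0.05) and a dashed line at the median of all genes, 0.73. Kif20a and Prc1 lie highest with dd apart from the other groups, and Ect2 and Mad2l1 lie lowest.

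Ratios within a library do not depend on its scaling, and the ratios of several partners in 1 complex or family differed between the numbers. Ccnb2 to Ccnb1 was 0.568 to 0.749 in the replicate 1 libraries and 1.88 to 2.29 in the replicate 2 libraries. Ccnb1 had 70.8 and 27.4 FPKM in control, 71.3 and 41.4 in sh, 98.0 and 44.9 in sd, and 75.5 and 53.0 in dd, while Ccnb2 had 46.7 and 58.2, 50.5 and 94.8, 55.6 and 99.0, and 56.5 and 99.4. So Ccnb1 was the higher of the B-type cyclins in every replicate 1 library and Ccnb2 in every replicate 2 library. Ccnb1 shares 27.8% of its 31-base words with other genes, mainly a Ccnb1 pseudogene. Aurka to Aurkb was 0.242 to 0.420 in replicate 1 and 0.873 to 1.23 in replicate 2, and Cdca8 to Birc5 was 0.152 to 0.232 and 0.579 to 0.669. Ndc80 to Nuf2 was 0.272 to 0.962 and 1.30 to 1.97, and Kif23 to Ect2 was 0.0713 to 0.140 and 0.284 to 0.632. Among these pairs, Ccnb2 to Ccnb1 and Ndc80 to Nuf2 lay under 1 in every replicate 1 library and above 1 in every replicate 2 library. Ratios did not overlap between the numbers for 8 of the 11 partner pairs computed, against 52.4% of all 780 pairs among the 40 genes and 52.3% of all pairs of the 12071 tested genes with a value above 0 in every library, so such separation was common. Smc4 to Smc2, Pttg1 to Espl1 and Spc24 to Spc25 did overlap. Within a number the ratio of the B-type cyclins differed little between control and treated cells, at 0.660 in control against 0.568 to 0.749 in the treated replicate 1 libraries, and 2.13 against 1.88 to 2.29 in replicate 2.

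Outside the set, Pou5f1, the pluripotency factor Oct4, had 83.1 and 251 FPKM in control, 24.2 and 14.7 in sh, 17.8 and 130 in sd, and 21.0 and 53.1 in dd. Its difference was -2.87 ± 1.12 in sh, -1.55 ± 1.12 in sd and -2.08 ± 1.12 in dd, each with an adjusted p of 1 (limma). It did not stand for its list: 8 of the 10 stem cell markers had a difference above 0 in each treated group, with medians of 0.18, 0.40 and 0.36. Nanog had 243 and 215 FPKM in control and 230 to 335 in the treated libraries. Sox2 had 200 and 291 FPKM in control, 177 and 19.7 in sh, 207 and 231 in sd, and 235 and 371 in dd. Both sh libraries of Sox2 lay below both controls, as did those of Pou5f1. Whether these levels bear on the mitotic genes was not tested.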

How the data were processed

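The 8 libraries, 2 in each of 4 groups, were made from total RNA of mouse embryonic stem cells. The authors deposited FPKM, 1 column per library, per the file headers. CASAVA 1.4, HISAT2 and the build mm10 appear in the submitters' processing notes; for the counting program, annotation, FPKM formula and strand setting, the details were not given in the sources used here. Of 58420 gene rows, 6082 had no values, and 52081 of the other 52338 matched GENCODE M21 (GRCm38) by Ensembl identifier. Read counts were recovered from FPKM times exon length, whole within 0.02 for 98.3% to 98.89% of values under 100 reads.

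The test was limma 3.58.1 (R 4.3.3) on log2(FPKM + 1), for 14561 genes with a mean of at least 1 FPKM, with all 4 groups fitted together, no covariates (4 residual degrees of freedom) and a trend in the moderated variance; p-values are two-sided, with Benjamini-Hochberg adjustment over all genes per comparison at 0.05. Such log2 differences understate changes of low genes. The script was tested on simulated data. The changes planted there were larger than any member's difference against control, so differences of the size seen here were not covered. Same-numbered libraries deviated together, with correlations of 0.750 to 0.893 between the groups' half-differences (6 pairs of groups), so the numbers pair the libraries; blocking on the number (3 residual degrees of freedom) was the alternative. Other alternatives changed the pseudocount, filter, scaling and tool or left out libraries.

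Promoter windows come from RefSeq (GRCm38.p6). The 40 genes, the 14 lists (213 of 215 genes matched) and the partner pairs were chosen with earlier results of these data known. Named beside the members were the called genes, and per comparison with control up to 3 higher and 3 lower members and 2 genes per list, with the same sign within both numbers, ranked by the smaller difference, and 4 higher and 4 lower members between the numbers. Members given for other reasons were described after their values were seen.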

Additional observations from a re-analysis of the deposited data

How the results depend on the processing

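No member was called against control or between treatments under any alternative run, and each comparison with control kept a positive members' median, from 0.13 to 0.64 in sh, 0.24 to 0.61 in sd and 0.18 to 0.49 in dd. The replicate block left these medians at 0.39, 0.43 and 0.33 and changed no call, while the counts at an unadjusted p rose as given above. The median in sd was 0.29 with quantile normalization, 0.24 with median ratio scaling (with and without the replicate block), 0.48 with the replicate block and voom on recovered reads, and 0.36 with libraries rescaled to the same total of 1000000 FPKM (with and without the block). In dd it was 0.26, 0.29 (with and without the replicate block) and 0.18 (with and without the block) for quantile, median ratio and rescaled libraries, 0.40 with a pseudocount of 0.1 and 0.46 with voom; with rescaled libraries 28 of the 40 members were above 0 in dd. Leaving out 1 library gave 0.32 to 0.61 in sd and 0.23 to 0.49 in dd, and with the block 0.30 to 0.56 in sd and 0.27 to 0.47 in dd. Without control replicate 2, fewer members lay above the median of all genes, as described above.

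Between the replicate numbers, the members' median turned from 0.09 to -0.46 with quantile normalization, -0.55 with median ratio scaling and -0.66 with libraries rescaled to the same total of 1000000 FPKM, while the median of all genes moved from 0.73 to 0.02, 0.25 and 0.18. Leaving out 1 library gave 9 to 15 called members. For single members under the alternatives in this comparison, 119 values stayed on their side of the threshold and 13 lost the call, and all 217 against control stayed. The rescaled libraries, and the block with them or with a library left out, were chosen after seeing the data. Against control, other named values ran over the alternatives from 0.20 to 0.91 for Plk1 and -0.62 to -0.12 for Cenpa in sh, 0.27 to 1.20 for Smc4 and 0.37 to 1.04 for Kif23 in sd, and 0.50 to 1.18 for Ndc80 in dd, with both ends from leaving out 1 library. With 1 library left out, the lone library is assumed to vary like the other groups. Without the block, such values also contain part of the difference between the replicate numbers. In replicate 1, the values of Kif20a rest on 1 to 37 reads. Those of Prc1 rest on 6 to 45 in control, sh and sd and on 148 in dd. Ncapg had 23 and 77 reads in control and sh, and 308 and 459 in sd and dd.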
